A study of Mus musculus with 6 samples.

Results

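The mouse genome carries 39 Hox genes in 4 clusters, and their transcripts were followed in embryoid bodies that lacked the Tet enzymes. Members were all protein-coding genes named Hox of clusters a, b, c and d in the RefSeq gene table, none left out for its values. The set itself was chosen with earlier results of these data known. All 39 were on the array, with 44 probes, among 20805 named genes with a probe. The groups were 2 independent mouse embryonic stem cell lines with Tet1, Tet2 and Tet3 all knocked out, TKO_26 and TKO_29, and 1 wild-type line, WT, all of mixed 129/C57BL6 background. Cells of every line were cultured for 10 days as embryoid bodies, spontaneously differentiating aggregates, 2 days in hanging drops and then 8 days in suspension without LIF, the cytokine that keeps stem cells undifferentiated. Total RNA was hybridised to 6 single-colour Agilent arrays, 2 per line, which the series calls technical replicas. Whether they came from separate cultures is not stated, so p-values over arrays measured only the spread between these arrays, which may be technical. All 6 arrays lay on 1 slide, TKO arrays in one part and WT arrays in the other, so that position and genotype cannot be told apart.

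Hox genes encode homeodomain transcription factors that give cells of the trunk, hindbrain and limbs their position along the head-to-tail axis. In the mouse embryo the genes at the 3′ end of a cluster (low paralogue numbers) are switched on first and most anteriorly, and those at the 5′ end (high numbers) last and most posteriorly. Retinoic acid, Wnt and Fgf signals and the Cdx factors are known to open the clusters, which Polycomb complexes hold silent in stem cells, and Tet enzymes oxidise 5-methylcytosine at CG sites.

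Because CG sites are the substrate of the enzymes that were removed, the promoters of the called genes that could be matched are printed here, together with that of Hoxb1, an undetected gene at the 3′ end of the Hoxb cluster, for contrast. The RefSeq promoter table (GRCm38.p6, 250 bases before to 50 after the start) held 24 promoters of 22 Hox genes, among them those of Hoxb4, Hoxb8 and Hoxd8, 3 of the 7 genes called below. All 4 lie on the plus strand and are written 5′ to 3′ with every CG in capitals, at chr11:96318017-96318316 for Hoxb4, chr11:96281655-96281954 for Hoxb8, chr2:74704365-74704664 for Hoxd8 and chr11:96365508-96365807 for Hoxb1.
Hoxb4: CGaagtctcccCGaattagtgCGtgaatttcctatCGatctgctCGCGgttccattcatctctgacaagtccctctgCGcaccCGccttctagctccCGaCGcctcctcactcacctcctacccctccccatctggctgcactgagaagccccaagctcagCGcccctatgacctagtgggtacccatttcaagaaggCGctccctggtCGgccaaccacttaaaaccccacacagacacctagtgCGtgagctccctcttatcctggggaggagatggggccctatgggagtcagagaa
Hoxb8: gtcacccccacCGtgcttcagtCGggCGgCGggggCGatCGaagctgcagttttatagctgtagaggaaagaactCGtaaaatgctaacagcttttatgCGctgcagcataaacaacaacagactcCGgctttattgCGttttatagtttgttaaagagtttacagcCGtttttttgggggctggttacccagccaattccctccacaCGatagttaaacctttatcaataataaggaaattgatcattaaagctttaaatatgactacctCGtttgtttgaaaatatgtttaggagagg
Hoxd8: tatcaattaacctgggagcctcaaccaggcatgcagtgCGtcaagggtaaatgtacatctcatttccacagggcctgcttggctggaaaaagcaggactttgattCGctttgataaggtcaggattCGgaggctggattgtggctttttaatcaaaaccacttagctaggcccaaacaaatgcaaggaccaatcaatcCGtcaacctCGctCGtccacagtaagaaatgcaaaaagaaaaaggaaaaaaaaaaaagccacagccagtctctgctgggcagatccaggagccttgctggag
Hoxb1: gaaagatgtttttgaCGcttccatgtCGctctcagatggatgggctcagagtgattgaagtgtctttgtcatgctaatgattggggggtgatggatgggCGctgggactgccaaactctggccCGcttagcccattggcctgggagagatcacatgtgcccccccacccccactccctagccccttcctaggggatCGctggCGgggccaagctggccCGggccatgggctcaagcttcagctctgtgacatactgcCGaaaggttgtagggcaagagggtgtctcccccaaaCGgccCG

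The Hoxb4 promoter held 14 CG, as many or more being found in 36.3% of all 32851 promoters in the table. Hoxb8 held 13 (37.9% of promoters have as many or more), Hoxb1 held 10 (43.5%) and Hoxd8 held 6 (56.4%). The 24 Hox promoters ranged from 4 to 45 CG with a median of 14.5, against a median of 7 in the whole table. Searched on both strands, TTTATG, a core of sites bound by Cdx factors, occurred in the Hoxb8 promoter, in 5 of the 24 Hox promoters and in 11.9% of all promoters. The retinoic acid receptor half-site AGGTCA occurred in the Hoxb4 and Hoxd8 promoters, in 7 of the 24 and in 16.3% of all. TGATTNAT, a joint Hox-Pbx motif, occurred in none of the 4 printed promoters, in 2 of the 24 (Hoxa2 and Hoxd11) and in 3.22% of all. These matches describe letters only, and methylation was not measured here.

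Levels are log2 processed signals minus the array's own 75th percentile, taken over 19178 probes that every array measured well above background, so 0 is a bright transcript. The lowest level well above background differed by array, from -6.24 on TKO_26 replicate 1 to -9.80 on TKO_29 replicate 1. They serve to compare arrays for 1 probe, not probes with each other. The arrays had 38.4% to 55.8% of spots well above background (called detected below), and TKO_26 replicate 1 was the least sensitive, with 36.9% of probes detected and a median variation between repeated spots of 9.60%, against 4.32% to 5.46% on the other arrays. Probes of the targeted genes differed among themselves. The brighter Tet1 probe read -2.01 and -2.17 in TKO_26, -2.69 and -2.81 in TKO_29, and -0.93 and -1.21 in WT. The dimmer Tet1 probe was not called (-0.08 in TKO_26 and 0.23 in TKO_29, limma adjusted p = 0.859 and 0.528). The brighter Tet2 probe read -3.85 and -3.77, -4.73 and -4.51, and -2.84 and -2.59 in the same order of lines. The dimmer Tet2 probe was called lower in both lines (-1.25 in TKO_26 and -1.50 in TKO_29). The brightest Tet3 probe gave -4.53 and -5.45 in TKO_26, -6.86 and -6.44 in TKO_29, and -5.87 and -6.20 in WT, with no call in either line. Of the other Tet3 probes, A_52_P491273 was called lower in both lines (-1.26 and -1.60), and A_51_P199339, which only the WT arrays detected, was called lower in TKO_29 and was at least 4.36-fold below WT over the TKO lines. Whether these probes lie in the deleted parts was not established here, so they check the labels only in part.

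Most Hox transcripts were dim or undetected at day 10. Of the 44 probes, 21 were detected on no array. At least 1 array detected 22 of the 39 genes; 17 genes were never detected, 6 of cluster a, 2 of cluster b (Hoxb1 and Hoxb9), 4 of cluster c and 5 of cluster d. Detected Hox probes numbered 3 and 10 on the TKO_26 arrays, 16 and 12 on the TKO_29 arrays, and 10 and 19 on the WT arrays. These numbers moved with array sensitivity, since 36.9% and 48.2%, 54.4% and 51.6%, and 41.1% and 49.6% of all probes were detected on the same arrays. Detection on both arrays of at least 1 line was required for testing and was met by 16 probes of 15 genes, 9 of them in cluster b. Of the 16, 4 passed only through WT and 7 only through a TKO line. A further 7 probes were detected on scattered arrays but not tested, namely Hoxa3 and Hoxc9 (in TKO and WT), Hoxd4 (TKO_29 replicate 1 only) and Hoxc8, Hoxd1 and 1 probe each of Hoxa9 and Hoxa13 (1 WT array only). The 21 probes detected nowhere had median readings of -8.09 and -10.02 on the TKO_26 arrays, -11.25 and -10.82 on the TKO_29 arrays, and -8.96 and -10.15 on the WT arrays, so undetected readings followed the array. The plot of levels by array shows the probes of each cluster, with undetected values marked.

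**Figure D1:**
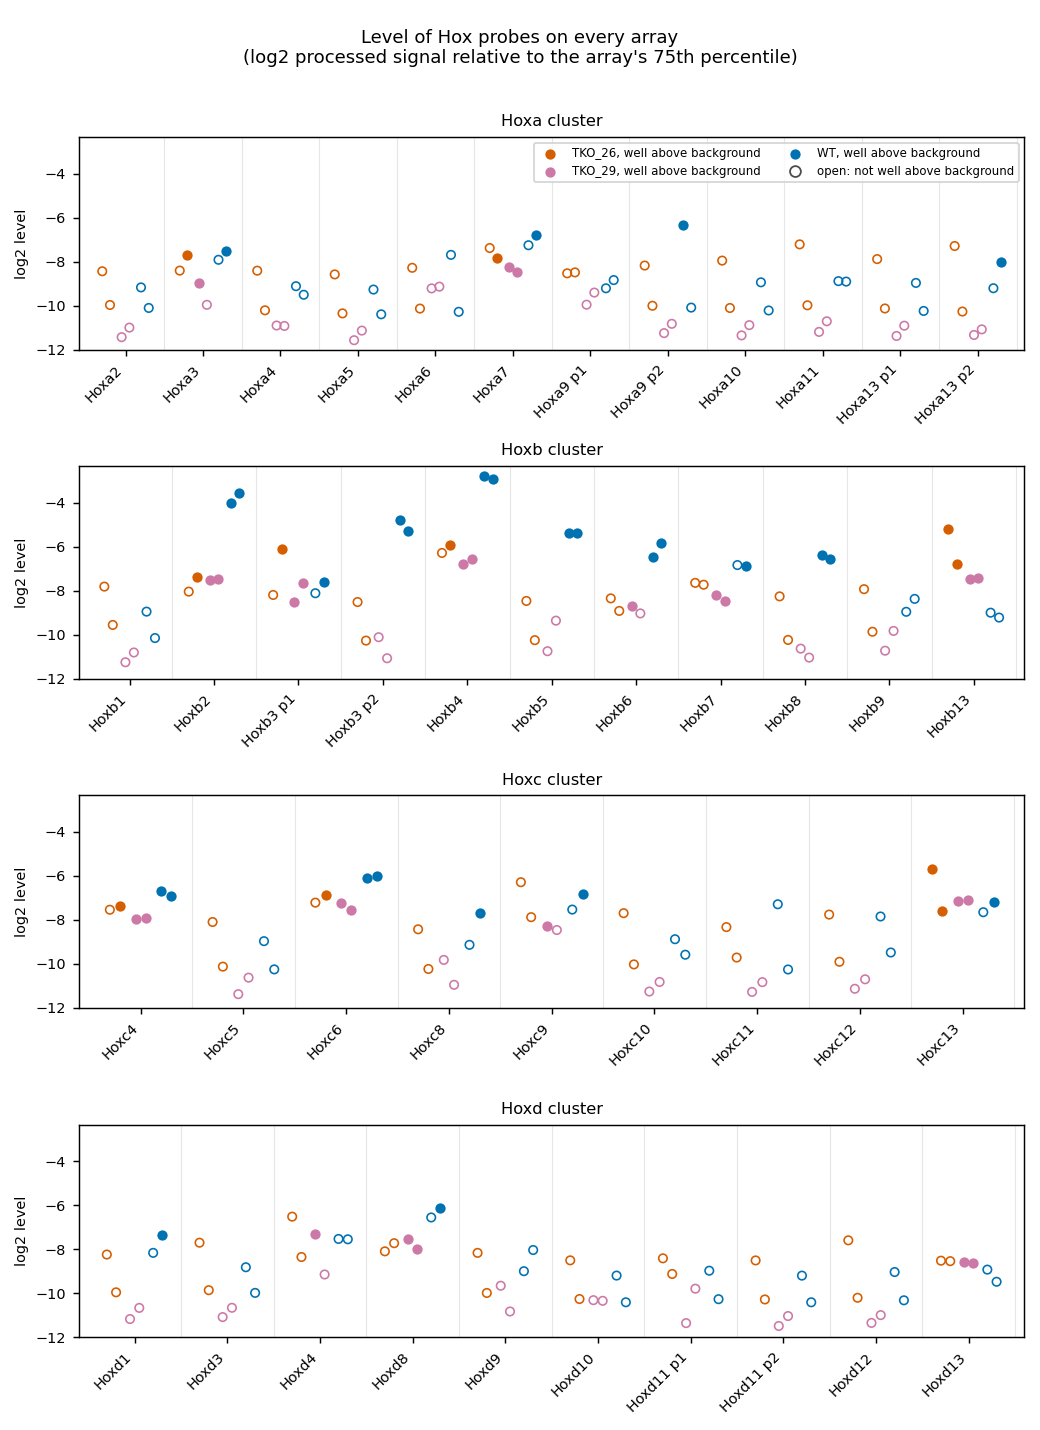
Level of Hox probes by cluster, in log2 units relative to the 75th percentile of its array, for TKO_26, TKO_29 and WT (2 arrays each); filled points are detected and open points are not. The Hoxb2, Hoxb3 (second probe), Hoxb4 and Hoxb5 points of WT lie between -5.36 and -2.78, above all TKO points of the same probes.

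Hox transcripts of the middle of the Hoxb cluster were lower in both knockout lines than in WT. Hoxb2, Hoxb3 (1 of 2 probes), Hoxb4, Hoxb5, Hoxb6 and Hoxb8, together with Hoxd8, made up 7 probes called lower in both lines, a call being a Benjamini-Hochberg adjusted p under 0.05 over all 28267 probes tested in limma and a difference of at least 2-fold. No Hox probe was called higher in both. Over all tested probes 5.93% were called lower in both lines and 4.09% higher. All TKO readings lay below both WT readings for 12 of the 16 tested Hox probes and above both for 2. The same held for 23.9% and 25.8% of all tested probes, so such separation of arrays was common. Of the 7 called probes, 4 (Hoxb3, Hoxb5, Hoxb6 and Hoxb8) entered the tests only because WT detected them, which sets the direction of their difference beforehand, so that the count of 7 is a description. Of the 28267 tested probes, the 8429 with a mean level under -6, the range of 14 of the 16 Hox probes, had median differences of 0.19 in TKO_26 and 0.05 in TKO_29. These medians cover only probes that passed the detection filter. With no filter the medians over all probes were 0.37 in TKO_26 and -0.76 in TKO_29, and several Hox differences use undetected readings. In these bulk samples fewer cells of a type and less RNA per cell cannot be told apart.

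Hoxb4, a factor of hindbrain and blood progenitors, read -6.28 and -5.94 in TKO_26, -6.80 and -6.57 in TKO_29, and -2.78 and -2.89 in WT. Both WT arrays were more than 3 log2 units above every TKO array. The difference was -3.27 ± 0.18 in TKO_26 (SE, n = 2 arrays per line; limma adjusted p = 0.00123) and -3.85 ± 0.18 in TKO_29 (limma adjusted p = 0.00091). With TKO_26 replicate 1 undetected, this was at least 9.53-fold lower in TKO_26, and it was 14.4-fold lower in TKO_29. "At least" sets WT against the lowest detected level, or the probe's own level where higher, on each array where the probe was undetected, and holds for processed signals scaled as here.

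Hoxb2, which patterns the hindbrain, read -8.03 and -7.35 in TKO_26, -7.51 and -7.45 in TKO_29, and -3.995 and -3.53 in WT. The groups did not overlap, and 3 of the 4 TKO arrays detected it. It fell by 3.93 ± 0.29 on the log2 scale in TKO_26 (limma adjusted p = 0.00215, at least 8.17-fold) and fell by 3.71 ± 0.29 in TKO_29 (limma adjusted p = 0.00224, 13.1-fold).

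One Hoxb3 probe and the Hoxb5 and Hoxb8 probes were detected on both WT arrays and on no TKO array. Hoxb3, another hindbrain patterning gene, read -8.51 and -10.26 in TKO_26, -10.11 and -11.06 in TKO_29, and -4.79 and -5.28 in WT with probe A_52_P312467, a difference of at least 5.70-fold in TKO_26 and at least 21.7-fold in TKO_29 (limma adjusted p = 0.0147 and 0.00572). Its other probe, A_51_P460643, read -8.18 and -6.08 in TKO_26, -8.50 and -7.63 in TKO_29, and -8.11 and -7.59 in WT, and was not called (limma adjusted p = 0.549 and 0.84). That probe was detected on TKO_26 replicate 2, on both TKO_29 arrays and on WT replicate 2. The 2 Hoxb3 probes therefore disagreed. The annotated span of Hoxb3 contains Hoxb4, and the positions of the probes were not used here.

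Hoxb5, which acts in lung, gut and vascular development, read -8.46 and -10.24 in TKO_26, -10.74 and -9.35 in TKO_29, and -5.36 on both WT arrays, at least 4.55-fold lower in TKO_26 and at least 17.3-fold lower in TKO_29 (limma adjusted p = 0.0233 and 0.0107). Hoxb8, which marks myeloid progenitors and patterns the trunk, read -8.25 and -10.23 in TKO_26, -10.62 and -11.03 in TKO_29, and -6.36 and -6.54 in WT. It was at least 2.14-fold lower in TKO_26 and at least 8.14-fold lower in TKO_29 (limma adjusted p = 0.044 and 0.0098). For each of these probes all TKO readings were below both WT readings, and the spread among undetected TKO readings has no meaning as an order. The bounds of Hoxb5, Hoxb8 and the called Hoxb3 probe do not compare the lines. They were larger in TKO_29 only because its arrays had lower lowest detected levels, -9.80 and -9.15, against -6.24 and -8.85 on the TKO_26 arrays.

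Hoxb6, expressed in lateral mesoderm and trunk, read -8.34 and -8.91 in TKO_26, -8.69 and -9.02 in TKO_29, and -6.47 and -5.84 in WT. One TKO_29 array detected it, and no TKO array reached the WT readings. It was at least 2.62-fold lower in TKO_26 and at least 6.51-fold lower in TKO_29 (limma adjusted p = 0.00894 and 0.00526). The TKO_26 bound was again set by the lowest detected levels of its arrays, so these bounds do not compare the lines. Hoxd8, a trunk gene and the only called member outside cluster b, read -8.10 and -7.73 in TKO_26, -7.55 and -8.01 in TKO_29, and -6.56 and -6.15 in WT. Its differences were -1.56 ± 0.26 and -1.42 ± 0.26 (SE, n = 2 arrays per line; limma adjusted p = 0.0178 and 0.0155), yet it was detected on WT replicate 2 and on both TKO_29 arrays only.

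The calls were unequal in how far they depended on single arrays. With a single array left out, the count of 7 became 6 (TKO_26 replicate 1), 8 (TKO_26 replicate 2), 4 (TKO_29 replicate 1), 2 (TKO_29 replicate 2) or 3 (either WT array). Hoxb2 and Hoxb4 were called lower in both lines in each of these fits, Hoxb6 in all but that without TKO_29 replicate 2.

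The sizes depended on how background was handled. With normexp correction, whose offset of 50 compresses differences between dim signals, the log2 differences in TKO_26 and TKO_29 were -2.69 and -3.52 for Hoxb4, -2.24 and -2.81 for Hoxb2, -1.86 and -2.62 for the called Hoxb3 probe and -1.66 and -2.44 for Hoxb5. They were -1.08 and -1.82 for Hoxb8, -0.81 and -1.62 for Hoxb6, and -0.44 and -1.09 for Hoxd8. In the authors' deposited matrix they were -2.995 and -3.01 for Hoxb4, -2.86 and -2.47 for Hoxb2, -2.53 and -2.32 for Hoxb3, -2.31 and -2.02 for Hoxb5, -1.47 and -1.43 for Hoxb8, -1.21 and -1.06 for Hoxb6, and -0.77 and -0.49 for Hoxd8. Most of these values are smaller than the folds and bounds above, so the bounds are no lower limit across these settings, while all 7 probes had TKO means below WT in both.

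**Figure D2:**
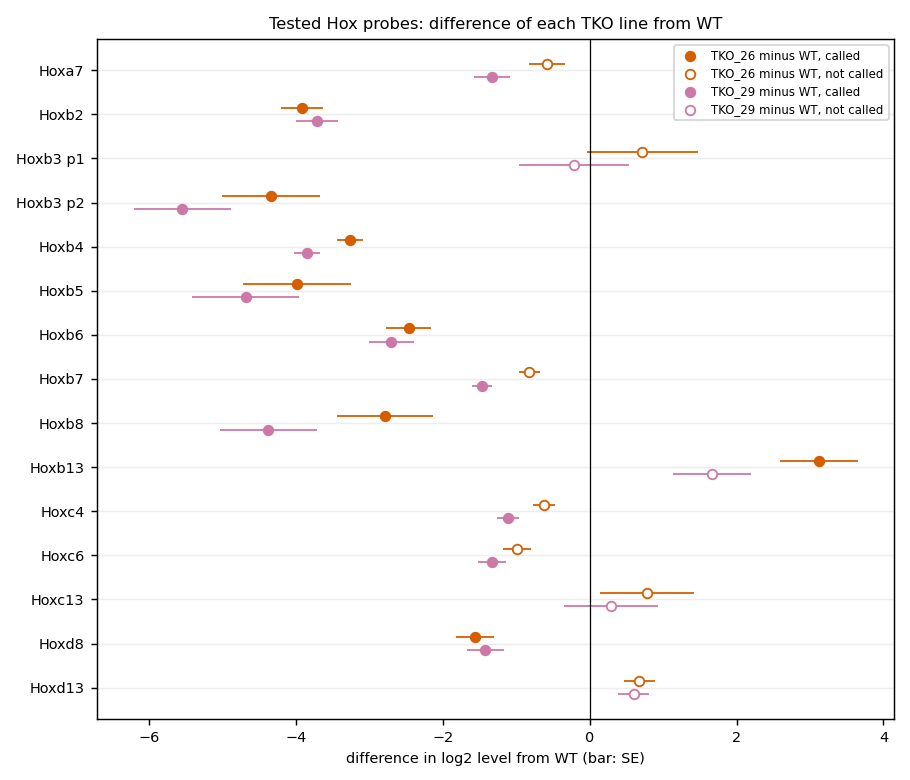
Difference in log2 level from WT for tested Hox probes in TKO_26 and TKO_29, with the SE of the limma fit as bars; filled points passed the adjusted p of 0.05 and the 2-fold limit, and readings not above background enter as measured. Hoxb2, Hoxb3 (second probe), Hoxb4, Hoxb5, Hoxb6, Hoxb8 and Hoxd8 are filled on the left in both lines, and Hoxb13 is filled on the right in TKO_26.

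The remaining Hoxb genes were not called lower in both lines. Hoxb13, the 5′-most gene of the cluster and a factor of tail and prostate, read -5.17 and -6.78 in TKO_26, -7.47 and -7.40 in TKO_29, and -8.99 and -9.21 in WT. It was detected on all 4 TKO arrays and on neither WT array. It therefore entered the tests only through the TKO lines, which sets the direction of its difference beforehand. It was called higher in TKO_26 (limma adjusted p = 0.0193), at least 2.98-fold, and was not called in TKO_29 (limma adjusted p = 0.0662), where the bound was at least 1.08-fold. With normexp correction its log2 differences were 1.34 and 0.02, and in the authors' deposited matrix 1.79 and 0.89. Over all tested probes 5.58% were called higher in TKO_26, and Hoxb13 was the 1 Hox probe among them. The TKO_26 call was lost without either WT array or either TKO_29 array (limma adjusted p = 0.0676 to 0.0986), and Hoxb13 was called in both lines without either TKO_26 array.

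Hoxb7, a trunk gene, read -7.64 and -7.72 in TKO_26, -8.20 and -8.44 in TKO_29, and -6.83 and -6.87 in WT. TKO readings lay below WT readings throughout, but it was detected on both TKO_29 arrays and WT replicate 2 only. It was called lower in TKO_29 (limma adjusted p = 0.00357). In TKO_26 its difference, -0.83 ± 0.14, lay under the 2-fold limit (SE, n = 2 arrays per line, limma adjusted p = 0.0202). No fold is given because WT replicate 1 and both TKO_26 arrays read background. Hoxb1, the hindbrain gene of the 3′ end, and Hoxb9, a trunk and limb gene, were undetected on all arrays and could not be tested.

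In TKO_29, 12 Hox probes were called lower and 0 higher, against 10.8% and 9.4% of all tested probes. In TKO_26, 7 were called lower, against 7.11%. Of the 16 tested Hox probes, 4 passed only through WT, which sets a lower direction beforehand, and 7 only through a TKO line. The counts for each line are therefore descriptions too. With 1 array left out, the lower calls in TKO_29 numbered 3 (TKO_29 replicate 2), 7 (TKO_29 replicate 1) or 10 to 13 (any other). Hoxa7, Hoxb7, Hoxc4 and Hoxc6 were among the probes called lower in TKO_29 only.

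Hoxa7, a trunk gene, read -7.37 and -7.84 in TKO_26, -8.23 and -8.48 in TKO_29, and -7.25 and -6.80 in WT. It was called lower in TKO_29 (limma adjusted p = 0.017), with no fold because WT replicate 1 did not detect it. Hoxc4, a gene of the neck and spinal cord, read -7.53 and -7.35 in TKO_26, -7.96 and -7.89 in TKO_29, and -6.70 and -6.92 in WT, and was 2.16-fold lower in TKO_29 (limma adjusted p = 0.0075). Hoxc6, a thoracic gene, read -7.21 and -6.87 in TKO_26, -7.21 and -7.53 in TKO_29, and -6.08 and -6.001 in WT. For these genes too every TKO reading was below both WT readings, as for 23.9% of all tested probes. Hoxc6 was 2.51-fold lower in TKO_29 (limma adjusted p = 0.00867), and its difference in TKO_26, -0.998 ± 0.19, with TKO_26 replicate 1 undetected, lay just under the 2-fold limit (SE, n = 2 arrays per line; limma adjusted p = 0.0259); it was called there once TKO_26 replicate 2 was left out.

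That these were called in 1 line does not show that the lines differed. Set directly against TKO_26, TKO_29 differed in 0 of the 16 Hox probes in limma, where 0.428% of all probes were called. Without adjustment, 6 of the 16 had p under 0.05, against 22.5% of all tested probes, and the smallest adjusted p was 0.0696. Leaving out single arrays gave 0 to 2 such calls.

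The 5′ genes gave no call in both lines. Of the 19 probes of paralogue groups 9 to 13, 3 were tested, all of which had passed only through a TKO line. Such passing did not by itself prevent a lower call. Hoxa7, Hoxb7 and Hoxd8 had passed only through TKO_29, each with 1 WT array detecting it, and were called lower there. With so few tested, the lack of calls is a description. Hoxc13, a factor of hair and nail, read -5.67 and -7.58 in TKO_26, -7.15 and -7.07 in TKO_29, and -7.65 and -7.16 in WT (limma adjusted p = 0.44 and 0.741), and its groups overlapped; it was called higher in TKO_26 once TKO_26 replicate 2 was left out (1.73). Hoxd13, a factor of the digits, read -8.53 and -8.55 in TKO_26, -8.58 and -8.64 in TKO_29, and -8.93 and -9.48 in WT (limma adjusted p = 0.0875 and 0.0838). Its TKO readings were all above WT, as for 25.8% of all tested probes, but only the TKO_29 arrays detected it.

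By cluster, median differences over tested probes were -2.79 in TKO_26 and -3.71 in TKO_29 for Hoxb (9 probes), -0.63 and -1.11 for Hoxc (3), and -0.44 and -0.41 for Hoxd (2), beside 0.04 and -0.03 over all tested probes. Of the Hoxb probes, 4 (1 of Hoxb3, Hoxb5, Hoxb6 and Hoxb8) had entered the tests only through WT, so the Hoxb medians are descriptions. With so few tested probes outside cluster b, the clusters were not set against each other.

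Averaging the arrays of each line left 2 TKO lines against 1 WT line and 1 residual degree of freedom. The called Hoxb3 probe, Hoxb5, Hoxb6 and Hoxb8 had entered only through WT, and Hoxb13 only through the TKO lines. That favours their direction beforehand, so counts of Hox probes on line averages are descriptions too. No spread between WT lines was measured, so WT was assumed to vary like the TKO lines. On that basis 1 Hox probe was called, Hoxb2 at -3.82 ± 0.34 (SE, TKO n = 2, WT n = 1; limma adjusted p = 0.0487), where 0.746% of all tested probes were called. Without adjustment, 9 of the 16 Hox probes had p under 0.05, against 17.3% of all tested probes. Hoxb5 (limma adjusted p = 0.051), Hoxb4 (0.0574), the called Hoxb3 probe (0.061) and Hoxb6 (0.0692) came next.

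The genes around the Hoxb cluster did not move as one. Calcoco2, an autophagy receptor, lies beyond Hoxb13 with Ttll6 between them, and Skap1, an adaptor of T cell signalling, lies beyond Hoxb1 at the other end. Calcoco2 read -0.21 and -0.21 in TKO_26, -0.43 and -0.40 in TKO_29, and -2.92 and -2.79 in WT with 1 probe, 5.81-fold higher over the TKO lines, and its other probe was 6.82-fold higher. Ttll6, a tubulin polyglutamylase, was at least 3.38-fold higher with 1 probe, which read -4.96 and -4.98 in TKO_26, -5.29 and -5.30 in TKO_29, and -7.82 and -6.85 in WT, and was not called with the other.

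Skap1 read -8.48 and -7.91 in TKO_26, -8.36 and -7.99 in TKO_29, and -6.27 and -6.64 in WT, at least 2.25-fold lower. No TKO reading of these called probes overlapped the WT readings. Of the 26 tested probes of 18 genes flanking the 4 clusters, 1 was called lower and 3 higher in both lines. Of all tested probes 5.93% were called lower and 4.09% higher. The median differences of the flanking probes were 0.05 in TKO_26 and 0.08 in TKO_29. Of non-coding transcripts of the clusters 1 was tested, Hoxa11os, antisense to Hoxa11; it was not called in TKO_26 (limma adjusted p = 0.0808) and was called lower in TKO_29 (limma adjusted p = 0.0206), with 1 WT array detecting it.

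**Figure D3:**
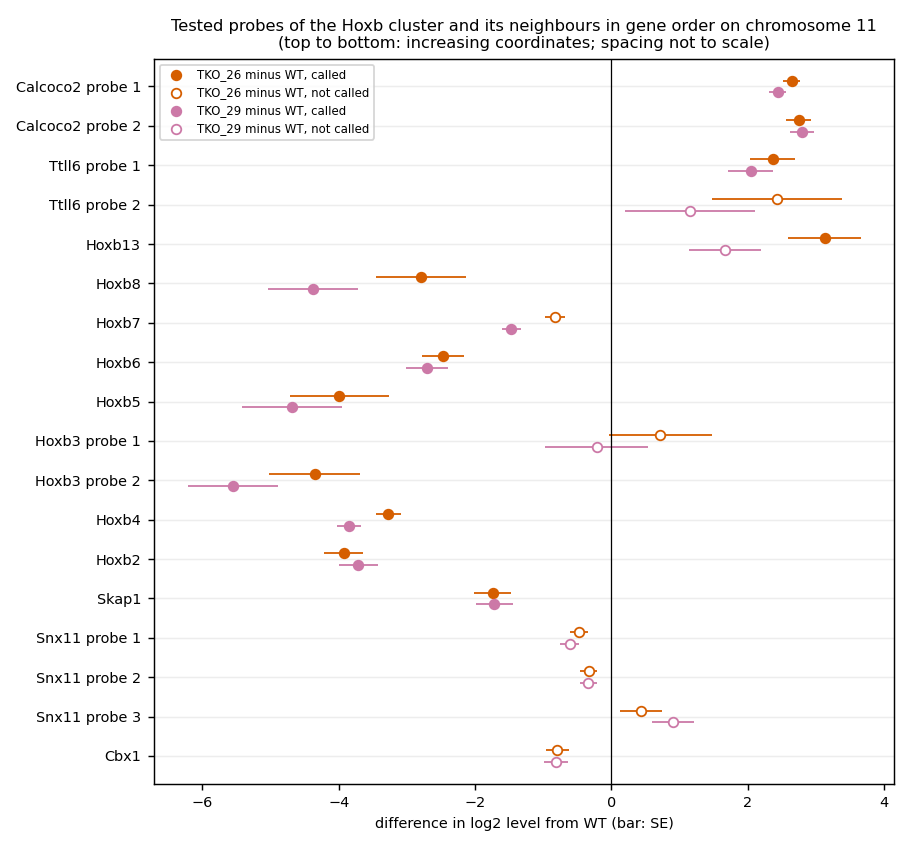
Difference in log2 level from WT for TKO_26 and TKO_29 along the Hoxb cluster and its neighbours on chromosome 11, in gene order from Calcoco2 to the far side of Skap1, with the SE of the limma fit as bars. The called probes of Calcoco2 and Ttll6, and Hoxb13, lie to the right of 0. The probes called in both lines from Hoxb8 to Hoxb2, and Skap1, lie to the left. The first Hoxb3 probe, which was not called, lies at 0.72 in TKO_26 and -0.21 in TKO_29.

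Of the partners that Hox proteins bind DNA with, the TALE-class cofactors, 2 of 14 tested probes were called lower in both lines and 1 higher. The shares over all tested probes were 5.93% and 4.09%. The cofactor medians were -0.32 in TKO_26 and -0.23 in TKO_29. Meis1 read -3.36 and -3.47 in TKO_26, -3.59 and -3.77 in TKO_29, and -1.01 and -0.96 in WT, 5.90-fold lower over the TKO lines (limma adjusted p = 0.00123 in TKO_26 and 0.00103 in TKO_29). Meis2, a close relative, was 3.26-fold lower, at -1.79 and -2.03 in TKO_26, -1.79 and -1.72 in TKO_29, and -0.03 and -0.23 in WT. Pbx4, of the Pbx group, was 2.24-fold higher, at -4.93 and -5.27 in TKO_26, -4.99 and -4.79 in TKO_29, and -6.18 and -6.14 in WT. TKO and WT readings of these 3 probes did not overlap.

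Among 25 tested probes of 20 upstream regulators, 6 were called lower in both lines and 3 higher, beside 5.93% and 4.09% of all tested probes. The regulator medians were 0.22 in TKO_26 and -0.11 in TKO_29. Cdx2, a caudal factor that activates trunk Hox genes, read -6.21 and -6.38 in TKO_26, -6.33 and -6.45 in TKO_29, and -3.13 and -3.86 in WT, at least 7.23-fold lower over the TKO lines (limma adjusted p = 0.00431 in TKO_26 and 0.00324 in TKO_29). Cyp26b1, which degrades retinoic acid, was 5.98-fold lower, at -5.78 and -5.50 in TKO_26, -5.49 and -5.54 in TKO_29, and -2.82 and -3.18 in WT. Every TKO reading of both was more than 2 log2 units below WT. Of the other Cdx genes, taken up after their values were seen, Cdx1 went the other way, at -5.79 and -5.53 in TKO_26, -5.89 and -5.90 in TKO_29, and -6.98 and -6.67 in WT; it was called higher in TKO_26, at least 2.20-fold (limma adjusted p = 0.0132), and lay under the 2-fold limit in TKO_29 (0.93, limma adjusted p = 0.0163). Cdx4 was detected on no array.

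Wnt5a, a non-canonical Wnt ligand, was 3.61-fold lower over the TKO lines. Rarb, a retinoic acid receptor that is itself induced by retinoic acid, was 3.32-fold lower with 1 probe and not called with the other (-0.79 in TKO_26 and -0.11 in TKO_29). Chosen after their values were seen, Aldh1a2, which makes retinoic acid, was 3.28-fold lower and Egr2, a hindbrain factor, at least 2.15-fold lower, while Nr6a1, a nuclear receptor that controls trunk Hox genes in the mouse, was 2.59-fold higher, the receptor Rxra 2.21-fold higher with 1 of 2 probes and the receptor Rarg 2.15-fold higher. The other degrading enzymes did not follow Cyp26b1: the bright Cyp26a1 was not called (-0.30 in TKO_26 and 0.03 in TKO_29), and Cyp26c1 was not tested.

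**Figure D4:**
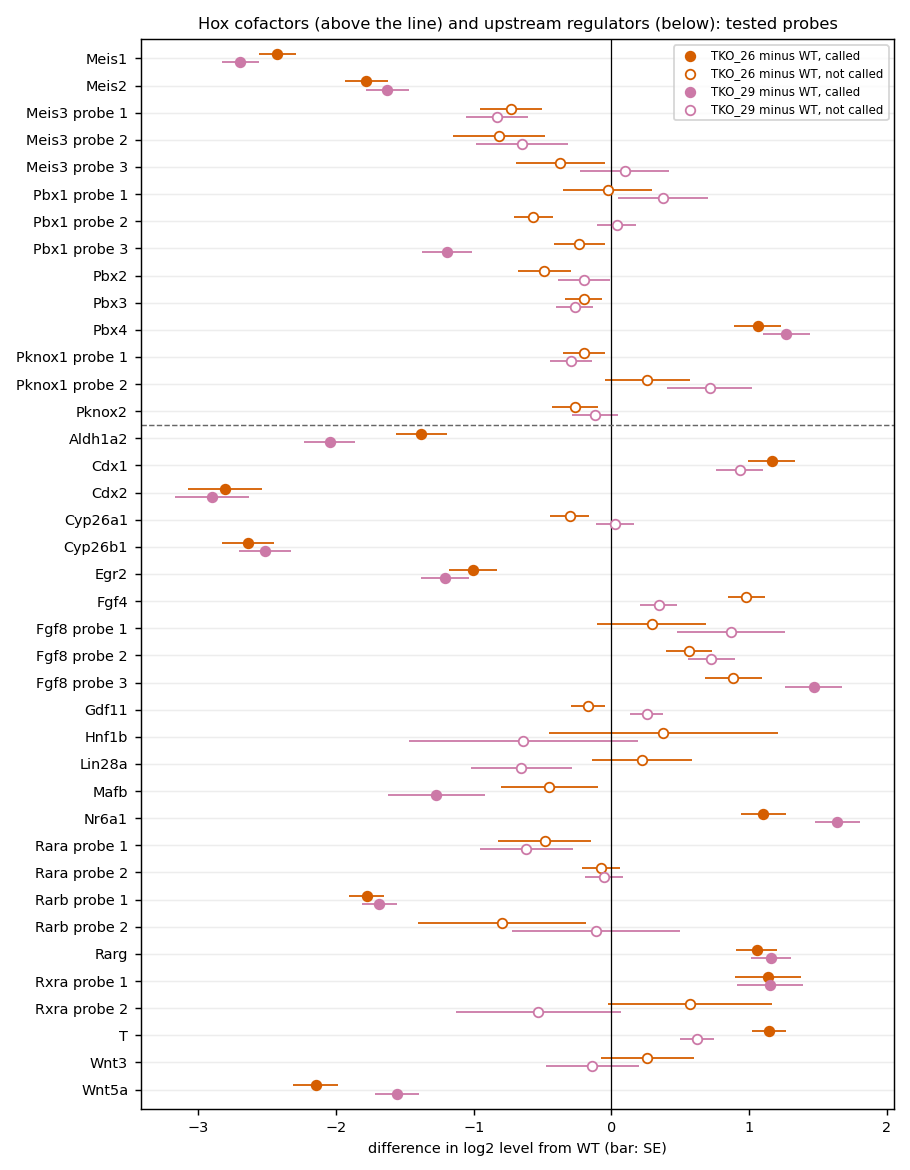
Difference in log2 level from WT for TKO_26 and TKO_29 for tested probes of the Hox cofactors and upstream regulators, with the SE of the limma fit as bars. Meis1 (-2.43 and -2.70), Cdx2 (-2.80 and -2.90) and Cyp26b1 (-2.64 and -2.52) lie furthest to the left among the called probes.

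Of 32 tested probes of 23 Polycomb and Trithorax genes, the repressors and activators that maintain Hox states, 0 were called lower and 1 higher in both lines. Beside this, 5.93% and 4.09% of all tested probes were called lower and higher. Medians of the list were 0.25 in TKO_26 and 0.28 in TKO_29. The called gene, Ring1, a ubiquitin ligase subunit of the first Polycomb complex, read -4.86 and -5.45 in TKO_26, -5.00 and -4.71 in TKO_29, and -6.17 and -6.80 in WT, 2.79-fold higher without overlap.

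Markers of other cell types moved beside the Hox genes. Their counts stand beside 5.93% of all tested probes called lower in both lines and 4.09% called higher. Tested probes that no TKO array detected had entered only through WT, which favours a lower reading beforehand. Those that no WT array detected had entered only through a TKO line. The marker counts and medians are therefore descriptions. For blood and endothelium, 9 of 11 tested probes were called lower in both lines, and the list's signal, summed over probes in units of each array's 75th percentile, was 0.31 to 0.40 in TKO_26, 0.18 to 0.21 in TKO_29, and 9.34 to 10.0 in WT; 3 of its probes were detected on no TKO array. Its median difference was -5.87 in TKO_26 and -5.90 in TKO_29. For paraxial and lateral mesoderm and mesenchyme, 12 of 18 were called lower and 2 higher, with medians of -2.37 in TKO_26 and -2.21 in TKO_29 and sums of 0.98 to 1.04 in TKO_26, 1.01 to 1.05 in TKO_29, and 4.08 to 4.73 in WT. For extraembryonic and definitive endoderm, 7 of 11 were called lower, with medians of -2.53 and -2.56 in the lines and sums of 2.32 to 2.51 in TKO_26, 2.20 to 2.28 in TKO_29, and 5.03 to 5.18 in WT, and 4 probes were detected on no TKO array.

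For axial progenitors and presomitic mesoderm, the tissue where Hox genes are first switched on in the embryo, 1 of 10 tested probes (Cdx2) was called lower and 1 (Nkx1-2) higher, with medians of 0.61 and 0.68 in the lines and sums of 1.24 to 1.41 in TKO_26, 1.35 to 1.69 in TKO_29, and 0.879 to 0.999 in WT. For neural tube and neurons 1 of 10 was called lower and 2 higher, with medians of 0.30 and 0.57 and sums of 1.85 to 2.01 in TKO_26, 2.11 to 2.35 in TKO_29, and 1.82 to 2.02 in WT. For pluripotent cells 0 of 13 were called lower and 4 higher, with medians of 0.98 and 0.60 and sums of 21.7 to 26.3 in TKO_26, 14.3 to 19.4 in TKO_29, and 15.9 to 21.0 in WT. Again the shares over all tested probes were 5.93% lower and 4.09% higher in both lines. The part of the marker shifts in the Hox differences was not tested.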

How the data were processed

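Per the labels' protocols, Cy3-labelled cRNA was prepared from column-purified RNA and read on Agilent arrays in 1 colour. Per the file headers, intensity values came from Feature Extraction 10.5.1.1 as background-subtracted processed signals that were not normalised between arrays. A matrix of log2 values from the authors was deposited too, and no source used here gives its processing; its columns followed the log2 median signal of their own arrays (r 0.995 to 1.00), with medians of 6.86 to 6.89, although the column of TKO_29 replicate 1 could hardly be told from another array (0.9962 against 0.9963). It was used as an alternative only.

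Control spots and outlier flags were removed (263 of 55681 probes lost, none of Hox genes), saturated spots kept and repeated spots averaged on the log2 scale. Signals were scaled to each array's 75th percentile over probes detected on all arrays. Probes were named through RefSeq accessions; 26023 of 26439 curated mRNA probes matched. The arrays were designed on mm9 and the gene table is GRCm38.p6, so coordinates are given for the table's promoters only.

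All probes detected on both arrays of at least 1 line were fitted with limma 3.58.1 in R 4.3.3, either as 3 groups of arrays (3 residual degrees of freedom) or as line averages. The rule for naming took every Hox gene and, of each other list, up to 4 genes with the largest mean difference among those called in both lines. Values of 1 member are not reported here, although it counts among the members. The members and lists were chosen with earlier results of these data known. Same-numbered arrays did not deviate together (r 0.175, -0.133 and -0.214 for the 3 pairs of lines). Alternatives were normexp correction (on median spot signal, the scanner files used here holding no mean signal), other scalings, filters, a variance trend, a replicate block, the brightest probe per gene and leaving out each array.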

Additional observations from a re-analysis of the deposited data

How the results depend on the processing

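The direction of all called differences held under every alternative that tested the probe; of 448 alternative values for single Hox probes, 360 kept their direction and side of the threshold, 75 lost the call, 5 gained one and 8 turned sign, none of these called. The count lower in both lines, 7, was 2 with normexp, 2 with no filter on dim probes (44 probes tested) and 0 with the filter on all 6 arrays, which left 1 Hox probe to test; leaving out single arrays gave 2 to 8. Hoxb2 and Hoxb4 were called in 14 of the 15 alternatives, Hoxb6 in 11, Hoxb3 and Hoxb8 in 8, Hoxb5 in 7 and Hoxd8 in 5. The count higher in both lines, 0, was 1 with quantile normalisation and 0 to 1 on leaving out arrays (Hoxb13). Calls in TKO_26, 8, were 2 with normexp, 0 with the 6-array filter, 2 with no filter and 3 to 10 on leaving out arrays. Calls in TKO_29, 12, were 7 with normexp, 6 with the authors' matrix, 1 with the 6-array filter, 5 with no filter and 3 to 14 on leaving out arrays. On line averages, 1, there were 4 with normexp, 2 with the percentile over all probes, 0 with quantile normalisation, 5 with the matrix, 0 with the 6-array filter, 0 with no filter, 6 with a variance trend, 0 with the brightest probe and 0 to 4 on leaving out arrays. Between the TKO lines, 0, leaving out arrays gave 0 to 2. The replicate block gave 6 lower in both lines, without Hoxb5, with 0 higher in both, and 7 and 12 calls in TKO_26 and TKO_29; array numbers did not pair the arrays, and no block could be fitted on line averages. Sign turned for the first Hoxb3 probe with quantile normalisation (-0.095 in TKO_26 and 0.11 in TKO_29), and with normexp in TKO_29 for Hoxc13 (-0.42) and Hoxd13 (-0.48). It also turned on leaving out arrays for the first Hoxb3 probe, which ranged from -0.33 (without TKO_26 replicate 2) to 1.77 in TKO_26 and from -0.65 to 0.22 (without TKO_29 replicate 1; 0.04 without WT replicate 2) in TKO_29, and for Hoxc13 in TKO_26, from -0.18 (without TKO_26 replicate 1) to 1.73. Of all probes called in both lines 40.8% were higher, against 27.2% with normexp and 25.1% with no filter. The median of all tested probes was -0.29 in TKO_29 with normexp, and 0.37 in TKO_26 and -0.76 in TKO_29 with no filter. Beyond the changed number of probes or arrays the cause was not tested. Of the 16 tested Hox probes 14 had a mean level under -6, near background, which limits precision, and 2 arrays per line limit it further.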
